A study of Mus musculus with 17 samples.

Results

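After an injection of phosphate-buffered saline (PBS) into the dorsal hippocampus, male Acss2 knockout (KO) mice are compared here with male wild-type (WT) mice. The comparison describes Acss2 loss in the absence of injected tau. It uses 6 of the 17 libraries of the series, chosen by their labels: KO PBS 751, 752 and 753 and WT PBS 791, 792 and 793, where the number is the one in the label. The KO was constitutive and carried in all cells, so that the loss preceded the injection, and KO and WT animals were bred separately, from homozygous pairs descended from heterozygous parents. Genotype and breeding line thus cannot be told apart in this comparison. The mice were injected at 6 months of age and, per the study's methods, examined 6 months later. The other 11 libraries came from KO and WT mice of both sexes given pathological tau from the brains of Alzheimer's disease patients (Tau). They are used below to look at the same genes in animals outside the PBS contrast, although the male ones shared its estimate of the spread. Female Tau values compare KO libraries 314, 324 and 325 with WT libraries 331 and 341 alone. These WT libraries lay far apart in some genes, which limits what the female values can show. Each library held poly(A) RNA from slices of dorsal hippocampus of perfused mice, and the labels do not say whether a library came from 1 animal or from several. P-values measure the spread between these libraries.

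ACSS2, acetyl-CoA synthetase 2, joins free acetate to coenzyme A in the cytosol and nucleus. The acetyl-CoA that it makes can be used by histone acetyltransferases at chromatin or by enzymes of fatty acid and sterol synthesis. In the brain acetyl-CoA outside mitochondria also comes from citrate through ATP citrate lyase (Acly), and mitochondria have an acetate-activating enzyme of their own (Acss1). ACSS2 is known for a role in histone acetylation at neuronal genes induced by activity and learning.

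The 6 libraries held between 16542129 and 21847844 counts. A count of 0 was taken to allow up to 3 counts, or 0.137 to 0.181 CPM (counts scaled to the library total) depending on the library. Intervals of this kind cover counting error only. In marker genes of hippocampal subfields and neighbouring regions 2 libraries, KO PBS 752 and WT PBS 791, stood apart most. KO PBS 751 and 753 also left the WT range in some lists. In mean log2 CPM minus the WT PBS mean, they were at -0.77 and -0.41 for neocortex (WT -0.09 to 0.05). They were at 0.66 and -0.46 for dentate granule cells (WT -0.23 to 0.16) and at 0.71 and 1.07 for choroid plexus (WT -0.16 to 0.11). For CA1 they lay within the WT range, at 0.12 and 0.06. KO PBS 752 was low in dentate granule cell markers, whose 16 genes summed to 427 CPM there and to between 502 and 1148 CPM in the other 5 libraries. Some markers were nearly absent and others, such as Calb1 with 100.3 CPM against 63.5 to 170 CPM, were within the range of the others. Dsp was at 0.907 CPM in KO PBS 752 and between 23.4 and 88.7 CPM in the other 5 libraries. Lct, also confined largely to granule cells in this tissue, was at 1.21 CPM against 23.7 to 85.6 CPM. Fibcd1, a marker of CA1 pyramidal cells, was at 19.8 CPM against 132 to 257 CPM. The same library was high in genes of striatal neurons. Adora2a, an adenosine receptor of striatopallidal neurons, was at 29.1 CPM against 1.42 to 1.62 CPM. It was also high in genes of upper neocortical layers such as Rorb, with 75.3 CPM against 13.2 to 23.1 CPM. Other hippocampal markers were near the other libraries in their sums, with CA2 genes at 558 CPM against 467 to 538 CPM and CA3 genes at 1140 CPM against 1179 to 1435 CPM. In mean log2 CPM minus the WT PBS mean, KO PBS 752 was at -0.69 for CA2 and -0.77 for CA3. The other 5 libraries lay between -0.13 and 0.12 for these lists. CA1 genes summed to 720 CPM against 1370 to 1588 CPM, and striatal genes to 1313 CPM against 517 to 525 CPM. Several dentate and CA1 markers of KO PBS 752 thus did not meet the label of dorsal hippocampus. Its CA2 and CA3 markers were near the other libraries in sum and below them in mean log2 level. The CA2 sum depended much on 1 gene, Pcp4, with 251 CPM in KO PBS 752 and 82.8 to 141 CPM in the other 5 libraries. It therefore does not show that CA2 content was kept. WT PBS 791 held transcripts of cerebellar granule cells, with Cbln3 at 82.8 CPM against 0.484 to 1.01 CPM and Fat2 at 45.9 CPM against 0.0597 to 1.07 CPM in the other 5. This last list was added after its values were seen. Values without KO PBS 752 or without WT PBS 791 stand below beside the counts and medians that these libraries moved.

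**Figure D1:**
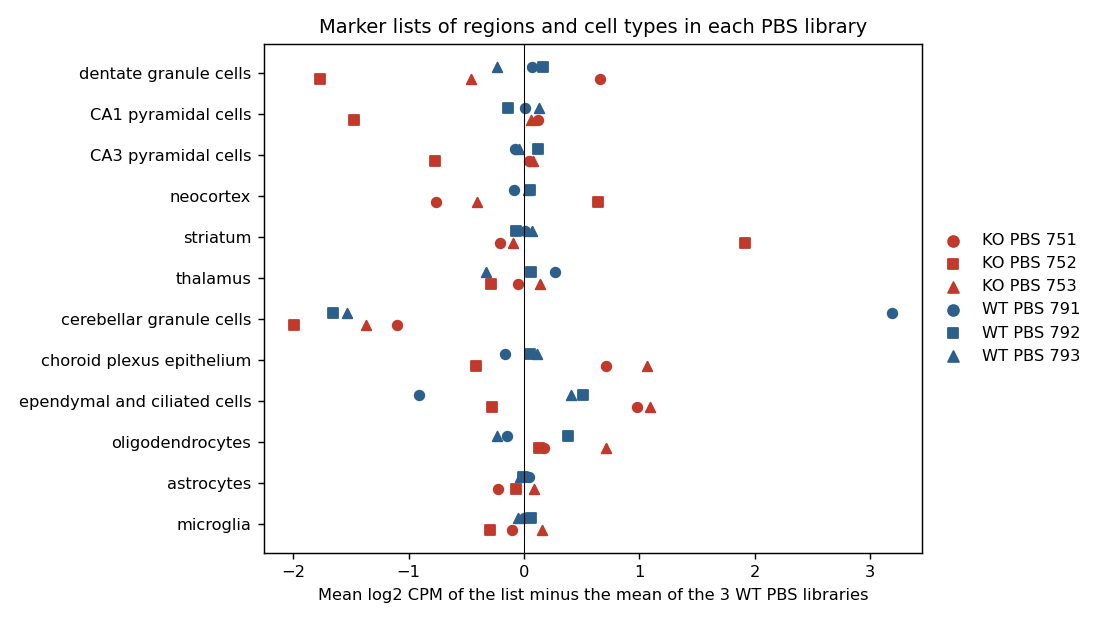
Mean log2 CPM of marker lists in each of the 6 PBS libraries, as the difference from the mean of the 3 WT PBS libraries (horizontal axis, log2), with KO PBS in red and WT PBS in blue and 1 symbol per library. KO PBS 752 sits 1.77 below the WT mean for dentate granule cells, 1.47 below for CA1 and 1.92 above for striatum, and WT PBS 791 sits 3.19 above for cerebellar granule cells.

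Acss2 was lost in KO PBS. Its level was 3.14, 4.17 and 3.84 CPM in KO PBS 751, 752 and 753 and 49.2, 54.6 and 53.1 CPM in WT PBS 791, 792 and 793. The groups were far apart, and the KO mean of 3.72 ± 0.524 CPM (SD, n = 3) was 7.11% of the WT mean of 52.3 ± 2.78 CPM (SD, n = 3). The log2 fold change was -3.76 (SE 0.19), a 13.6-fold lower level, with an adjusted p of 6.89e-06 (edgeR quasi-likelihood F-test on the 12 male libraries, Benjamini-Hochberg). The remaining signal was above the counting limit, with 62, 69 and 84 counts in the 3 KO libraries. The targeted gene thus matched the genotype label in each of the 6 libraries, KO PBS 752 included. A similar loss was seen after Tau, with a log2 fold change of -3.47 (SE 0.19) in males and -2.86 (SE 0.26) in females.

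The gene (ENSMUSG00000027605.18) lies on the plus strand of chr2:155517948-155585724 in GRCm38. Its start overlaps Ggt7, a gamma-glutamyltransferase gene annotated on the opposite strand over chr2:155490379-155518237. Ggt7 had 2527, 2662 and 2834 counts in KO PBS and 2631, 2704 and 2437 counts in WT PBS, and its log2 fold change was 0.02 (SE 0.12). Counting was by strand, so the level of Ggt7 was read apart from that of Acss2. The antisense gene Acss2os had 0 counts in the 3 KO PBS libraries together and 13 in WT PBS, too few for a test. Gss, the glutathione synthetase gene, is annotated on the opposite strand over chr2:155563181-155592810 and overlaps the end of Acss2. It had a log2 fold change of -0.03 (SE 0.15). Since Acss2 shares its start region with Ggt7, whose counts overlapped between the genotypes, the sequence that starts Acss2 is shown here, 250 bases before to 50 bases after the transcription start in RefSeq (GRCm38.p6, plus strand, chr2:155517793-155518092), with GC boxes (GGGCGG or CCGCCC on either strand) in capitals.
Acss2 promoter: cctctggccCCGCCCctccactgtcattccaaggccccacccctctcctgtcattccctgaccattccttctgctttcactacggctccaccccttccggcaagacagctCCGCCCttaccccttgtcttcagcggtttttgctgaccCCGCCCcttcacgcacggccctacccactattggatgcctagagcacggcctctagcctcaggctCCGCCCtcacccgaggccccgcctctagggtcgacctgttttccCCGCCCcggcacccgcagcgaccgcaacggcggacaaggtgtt
The window held 5 GC boxes. At least 1 was found in 35.7% of the 32851 RefSeq promoter windows of the same length, so the match is common and is given as a description only.

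Genes flanking Acss2 on the chromosome were described as a group. Of the 20 tested genes on each side (chr2:154335380-156309952), none of 40 passed the false discovery rate (FDR) of 0.05, against a background of 0.00662% of the 15098 genes tested. At an unadjusted p under 0.05, 0 of the 40 were higher and 1 was lower, against a background of 2.06% higher and 2.36% lower. The lower one was the sperm-associated gene Spag4, with a log2 fold change of -0.46 (SE 0.21). The median log2 fold change of the 40 was 0.04, against 0.01 for all genes tested.

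No other gene of acetyl-CoA supply passed the test. Of 37 genes of acetate and acetyl-CoA supply, 36 were tested, and Acss2 was the 1 that passed the FDR. Of the 36, 18 had a value above 0 and 18 below, with a median log2 fold change of 0.01. Acly was at 193, 242 and 213 CPM in KO PBS and 195, 200 and 212 CPM in WT PBS, a log2 fold change of 0.15 (SE 0.13). Acss1, the mitochondrial acetate enzyme, was at 32.3, 26.1 and 33.8 CPM against 31.8, 34.9 and 31.7 CPM, a log2 fold change of -0.04 (SE 0.22). The 2 groups overlapped for both genes. Acss3, which prefers propionate, was at 0.71, 0.484 and 0.824 CPM in KO PBS and 0.932, 1.24 and 1.13 CPM in WT PBS. These ranges did not meet, and the log2 fold change was -0.64 (SE 0.51). Per kilobase of exon, the WT PBS level was 5.15 CPM for Acss2, 7.95 CPM for Acss1 and 38.3 CPM for Acly, and the KO PBS level of Acss2 was 0.366 CPM.

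Crat, carnitine acetyltransferase, which moves acetyl groups between coenzyme A and carnitine, was the other gene of this list with an unadjusted p under 0.05 (background 2.36% lower). It was at 39.4, 42.4 and 49.2 CPM in KO PBS and 52, 53 and 52.4 CPM in WT PBS, a log2 fold change of -0.21 (SE 0.09, adjusted p = 0.999), and -0.19 (SE 0.11) without KO PBS 752. Subunits of the pyruvate dehydrogenase complex, which makes acetyl-CoA in mitochondria, had values near 0. Pdha1 had a log2 fold change of 0.15 (SE 0.09), Pdhb 0.04 and Dlat 0.05. The same held for Slc33a1, which carries acetyl-CoA into the endoplasmic reticulum, at 0.07. Nat8l, the N-acetylaspartate synthase of neurons, was at 438, 875 and 534 CPM in KO PBS against 482, 510 and 482 CPM in WT PBS. The highest of these was KO PBS 752, and without that library the log2 fold change went from 0.38 (SE 0.21) to 0.04 (SE 0.13). Aspa, which releases acetate from N-acetylaspartate in oligodendrocytes, had a log2 fold change of 0.11 (SE 0.27).

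**Figure D2:**
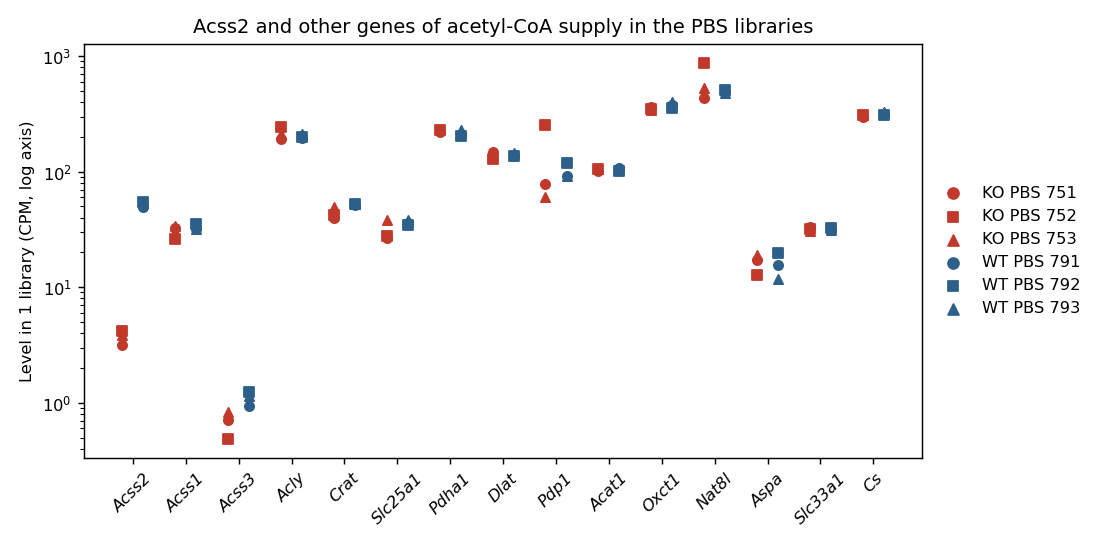
Level of Acss2 and 14 other genes of acetyl-CoA supply in each PBS library (vertical axis, CPM, log axis), with KO PBS in red and WT PBS in blue and 1 symbol per library. Acss2 is between 3.14 and 4.17 CPM in the KO libraries and between 49.2 and 54.6 CPM in the WT libraries, while the points of Acly, Acss1 and Aspa overlap and Pdp1 and Nat8l are highest in KO PBS 752.

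Enzymes that use cytosolic acetyl-CoA were examined as 1 list, with no separate count or median for each branch. None of 32 genes of sterol and fatty acid synthesis passed the FDR, and at an unadjusted p under 0.05 there were 2 higher and 2 lower, against a background of 2.06% of genes higher and 2.36% lower. The median of the list was -0.07. The 2 higher genes both act in fatty acid synthesis. Acaca, acetyl-CoA carboxylase 1, was at 50.2, 53.5 and 55.4 CPM in KO PBS and 48.2, 46.9 and 48.2 CPM in WT PBS (log2 fold change 0.20, SE 0.07). Fasn, fatty acid synthase, was at 436, 382 and 473 CPM against 362, 374 and 365 CPM (log2 fold change 0.28, SE 0.11). For both genes the 3 KO values lay above the 3 WT values. DESeq2 on the PBS libraries without KO PBS 752 called Fasn (adjusted p = 0.00555) and not Acaca (adjusted p = 0.554).

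The lower genes both act in cholesterol synthesis. The genes named from either branch were picked by p, and they do not describe the branch as a whole. Lss, lanosterol synthase, was at 27.1, 31.7 and 28 CPM in KO PBS and 38.9, 34.1 and 33.6 CPM in WT PBS (log2 fold change -0.24, SE 0.09). Cyp51, the lanosterol demethylase of the next step, was at 70, 74.5 and 66.5 CPM against 85.3, 81.7 and 88.2 CPM (log2 fold change -0.22, SE 0.09). In both cases the KO and WT values did not overlap. After Tau, Cyp51 had a log2 fold change of -0.26 (SE 0.09) in males and -0.34 (SE 0.12) in females. The other 3 genes were nearer to 0 after Tau, with Lss at 0.09 in males and -0.10 in females, Fasn at 0.02 and 0.14 and Acaca at 0.04 and 0.12. Without KO PBS 752 the list had 2 higher and 4 lower genes at an unadjusted p under 0.05, against backgrounds of 3.21% and 2.55%, and its median was -0.12. Without WT PBS 791 it had 0 higher and 1 lower.

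Genes of the acetylation machinery were examined next. None of 16 histone acetyltransferase genes passed the FDR. Crebbp had a log2 fold change of 0.17 (SE 0.09), Ep300 0.12 (SE 0.11), and Taf1, at 0.18 (SE 0.08), was the 1 gene of the list with an unadjusted p under 0.05 (background 2.06% higher), where there were 0 without KO PBS 752 and 0 without WT PBS 791. Of 18 histone deacetylase and sirtuin genes, 2 were higher and 3 lower at an unadjusted p under 0.05 and none passed the FDR, with a median of -0.14, against a background of 2.06% higher and 2.36% lower. There were 1 higher and 2 lower without KO PBS 752, and 1 higher and 1 lower without WT PBS 791. Hdac8 was at 15, 14.9 and 15.8 CPM in KO PBS and 11.9, 13 and 13 CPM in WT PBS (log2 fold change 0.32, SE 0.10). Hdac3, a subunit of nuclear corepressor complexes, was at 72.2, 69.5 and 76.3 CPM against 90, 85.7 and 87.3 CPM (log2 fold change -0.22, SE 0.07). The KO and WT ranges of both genes were apart. Hdac9 was at 40.3, 31.7 and 41.7 CPM against 55.5, 44.8 and 56.4 CPM (log2 fold change -0.41, SE 0.15), Hdac4 had a log2 fold change of 0.26 (SE 0.10) and Sirt4 of -0.36 (SE 0.16). The adjusted p of each of these was 0.999. Among 21 acetyl-lysine readers, Smarca4 with 0.26 (SE 0.10) and Baz1b with 0.18 (SE 0.08) were the genes under that p (background 2.06% higher), and without WT PBS 791 there were 0.

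Across all 15098 genes tested, Acss2 was the single gene past the FDR, or 0.00662%. The median absolute log2 fold change was 0.11, and 52.5% of genes had a value above 0. At an unadjusted p under 0.05 there were 667 genes, 311 higher in KO PBS (2.06%) and 356 lower (2.36%). Counted by overlap of CPM, the 3 KO values lay above the 3 WT values for 349 genes (2.31%) and below them for 1417 (9.39%). That split depended on the scaling. After TMM factors, which were below 1 in the KO PBS libraries, the counts were 640 (4.24%) and 869 (5.76%).

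**Figure D3:**
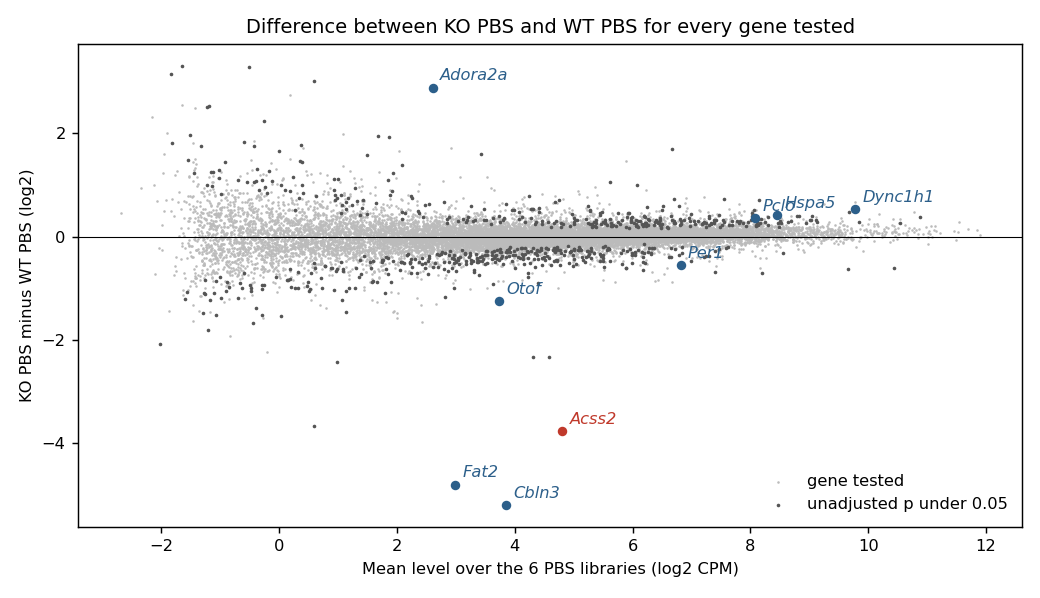
Log2 fold change of KO PBS against WT PBS (vertical axis) by the mean level over the 6 PBS libraries (horizontal axis, log2 CPM) for the 15098 genes tested, with genes at an unadjusted p under 0.05 in dark grey. Acss2 stands at -3.76 and the other genes below -3 include Cbln3 and Fat2, which were high in WT PBS 791 alone.

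The genes named next had the lowest unadjusted p in either direction with no overlap of CPM and a mean of at least 1 CPM. Their adjusted p was 0.999 in each case, and they were chosen on this comparison, so that their PBS values are a description. Zbtb40, a zinc finger gene, was at 15.3, 19.7 and 18.9 CPM in KO PBS and 12.6, 13.2 and 13.1 CPM in WT PBS, a log2 fold change of 0.52 (SE 0.11). The male Tau libraries entered this choice only through the shared estimate of the spread, and the female ones not at all. After Tau, Zbtb40 was at 16.4, 16 and 17.5 CPM in male KO and 12.1, 10.8 and 12.3 CPM in male WT. Its log2 fold change was 0.53 (SE 0.11) in males and 0.05 (SE 0.20) in females. The male values did not overlap between the genotypes after either injection. Zdhhc14, a palmitoyltransferase, was at 54.6, 53.4 and 53.2 CPM against 43.6, 42.8 and 46 CPM after PBS (log2 fold change 0.34, SE 0.07), and had a log2 fold change of -0.04 in male and 0.03 in female Tau libraries.

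Pclo, the giant scaffold protein of the presynaptic active zone, was at 296, 315 and 288 CPM in KO PBS and 262, 236 and 229 CPM in WT PBS (log2 fold change 0.36, SE 0.08). It passed the FDR in DESeq2 on the 12 male libraries (adjusted p = 0.0181), in 2 of 28 alternatives, with adjusted p between 0.0181 and 1 over them. After Tau its log2 fold change was 0.05 (SE 0.08) in males and 0.54 (SE 0.24) in females. Female WT Tau 331 and 341 were at 157 and 282 CPM, and the female KO Tau libraries at 358, 316 and 249 CPM. Nos1ap, an adaptor of neuronal nitric oxide synthase, was at 138, 153 and 141 CPM against 103, 124 and 102 CPM (log2 fold change 0.45). Akap9, an anchoring protein of the Golgi and centrosome, was at 96.4, 127 and 90.1 CPM against 74.5, 79.3 and 73.9 CPM (log2 fold change 0.51). Mns1 and Cfap126, both of motile cilia, had log2 fold changes of 0.91 and 1.44 at low levels, with no KO library above 2.79 CPM. The other genes of this set were Scrt2 (0.54), a neuronal transcriptional repressor, Prrc2c (0.32) and Il12rb2 (0.63), a subunit of the interleukin-12 receptor.

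Among the lower genes, Per1, a negative limb gene of the circadian clock that is also induced by activity and glucocorticoids, was at 88.4, 84.1 and 95.5 CPM in KO PBS and 128, 145 and 135 CPM in WT PBS. The means were 89.3 ± 5.73 and 136 ± 8.83 CPM (SD, n = 3 each), and the log2 fold change was -0.55 (SE 0.14, adjusted p = 0.999). DESeq2 on the 6 PBS libraries gave an adjusted p of 0.0109. Over 28 alternatives the log2 fold change stayed between -0.61 and -0.48 and 6 of them passed the FDR, with adjusted p from 0.00116 to 1. Male KO Tau libraries had 59.5, 78.8 and 81.9 CPM and male WT Tau 91.2, 100 and 125 CPM, again with no overlap (log2 fold change -0.51, SE 0.14). In females the log2 fold change of Per1 was 0.16 (SE 0.22).

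Acer2, an alkaline ceramidase, was at 4.36, 5.62 and 5.95 CPM in KO PBS and 9.65, 7.18 and 8.77 CPM in WT PBS (log2 fold change -0.63). Nfkbid, an inhibitor-of-NF-kappa-B family gene, was at 1.12, 1.87 and 1.24 CPM against 3.51, 2.94 and 2.57 CPM (log2 fold change -1.05). Dennd6b, an exchange factor for Rab proteins, was at 39.2, 50.5 and 48.4 CPM against 90.1, 63 and 66 CPM (log2 fold change -0.61), and its highest value was that of WT PBS 791. The remaining ones were Stk40 (-0.40), the telomeric zinc finger gene Zbtb48 (-0.47), the autophagy-related gene Atg16l2 (-0.49), Rrp1b (-0.49) and Zfp948 (-0.43). Zfp948 was also lower in male KO Tau than in male WT Tau, by a log2 fold change of -0.57 (SE 0.12), and was at -0.06 in females.

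Of the 10 higher genes, 6 had the same direction in male and 7 in female Tau libraries. Of the 9 lower genes other than Acss2, 8 had the same direction in male Tau libraries and 2 in female ones. For all genes tested the direction was shared by 52% in males and by 50.5% in females. No PBS library enters the Tau contrasts, although the male contrasts share 1 estimate of the spread.

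**Figure D4:**
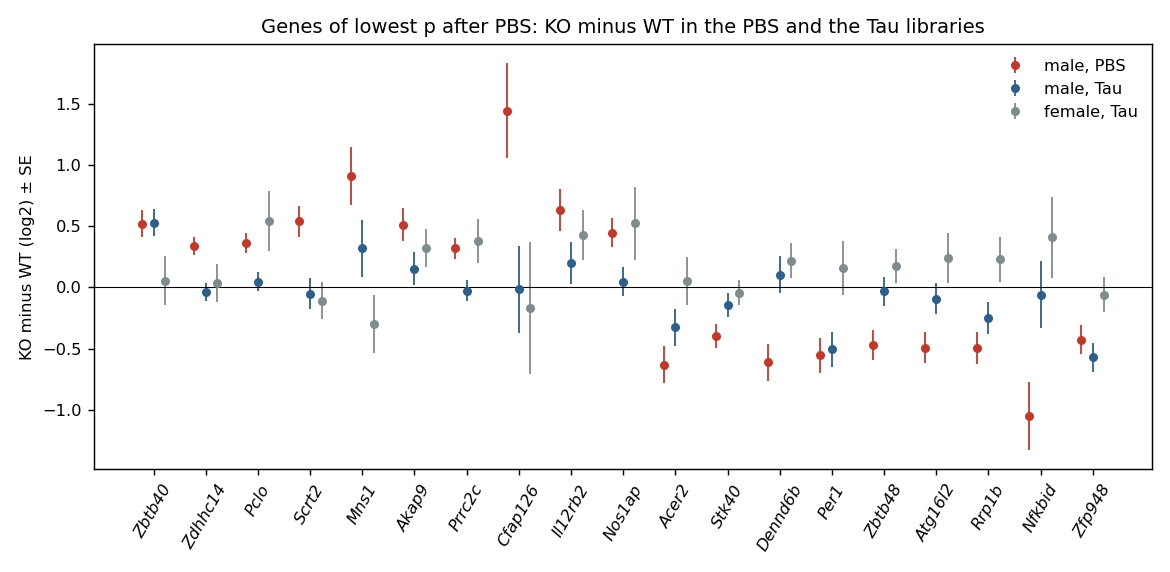
Log2 fold change of KO against WT with its SE (vertical axis) for the 10 higher and 9 lower genes of lowest p after PBS, in male PBS (red, the contrast that chose them), male Tau (blue) and female Tau (grey) libraries. Zbtb40, Per1 and Zfp948 have male Tau values of 0.53, -0.51 and -0.57 beside PBS values of 0.52, -0.55 and -0.43, whereas most genes lie nearer to 0 after Tau than after PBS.

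Of 28 immediate early genes, the first genes that neuronal activity induces, 18 had values below 0. Of the 28, 0 were higher and 5 lower at an unadjusted p under 0.05 (background 2.06% and 2.36%) and none passed the FDR, with a median log2 fold change of -0.14. Klf4 was at 4.36, 4.84 and 5.86 CPM in KO PBS and 7.62, 7.75 and 8.23 CPM in WT PBS (log2 fold change -0.60, SE 0.17). Fosl2, a subunit of the AP-1 factor, was at 57.3, 52.1 and 69.8 CPM against 72.5, 106 and 87.9 CPM (log2 fold change -0.52, SE 0.15). Fosb was at 13.2, 13.8 and 15.9 CPM against 20.6, 39.7 and 22.2 CPM (log2 fold change -0.89, SE 0.36), and Sik1, a kinase induced by cAMP, had a log2 fold change of -0.48 (SE 0.19). Per1 was the fifth. After TMM scaling the ranges of Fosl2 and Sik1 met, while those of Klf4 and Fosb stayed apart. In male Tau libraries Fosl2 and Sik1 had log2 fold changes of -0.69 (SE 0.16) and -1.03 (SE 0.19), and in female ones 0.16 (SE 0.12) and 0.21 (SE 0.28).

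Egr2 and Egr4, zinc finger factors of this list, had KO values below the WT values without passing that p, with log2 fold changes of -0.85 (SE 0.70) and -0.48 (SE 0.28). The other members overlapped between the genotypes. Fos was at 16.3, 29.4 and 34.6 CPM in KO PBS and 33, 48.5 and 39.6 CPM in WT PBS (log2 fold change -0.55, SE 0.56). Npas4, a factor of activity-dependent inhibition, was at 10.4, 12.5 and 15.7 CPM against 11.3, 13.3 and 12.1 CPM, a log2 fold change of 0.13 (SE 0.42). Arc, whose product acts at the synapse, was higher in KO PBS by a log2 fold change of 0.50 (SE 0.25), and Egr1 was at -0.18 (SE 0.39). WT PBS 792 held the highest value of Fos, Fosb, Fosl2, Egr1 and Egr2 among the 6 libraries. Without KO PBS 752 there were 1 higher and 3 lower immediate early genes at that p, and the median was -0.14. Without WT PBS 791 the counts were 0 and 5 and the median was -0.24.

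Clock genes also had values mostly below 0, namely 14 of 18, with a median of -0.12, and 3 were lower at an unadjusted p under 0.05 (background 2.36%). Beside Per1, these were Per2, with 39.3, 22.6 and 36.7 CPM in KO PBS and 45.9, 46.7 and 43 CPM in WT PBS (log2 fold change -0.41, SE 0.18), and Dbp, an output gene of the clock, with 23.9, 27.3 and 28.9 CPM against 38, 30.9 and 33.6 CPM (log2 fold change -0.30, SE 0.14). Core activators were near 0. Arntl had a log2 fold change of -0.05 (SE 0.11) and Clock of 0.16 (SE 0.10). The lowest Per2 value was that of KO PBS 752, and without it Per2 was at -0.20 (SE 0.12). The hour at which mice were killed is not given in the labels, and its part in these values was not tested. Without WT PBS 791, 1 clock gene was lower at that p. With KO PBS 752 left out, 16 of the 18 were below 0, with a median of -0.21, and 3 were lower at that p.

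Chaperones of the endoplasmic reticulum (ER) were highest in KO PBS 751 and 753. Of 19 genes of the integrated stress and unfolded protein response, 5 were higher and 0 lower at an unadjusted p under 0.05, with a median of 0.16, against a background of 2.06% higher and 2.36% lower, and none passed the FDR. The list without KO PBS 752 again had 5 higher and 0 lower, but its median was 0.09 and 14 genes in place of 16 had values above 0. Hspa5, the chaperone BiP, was at 433, 330 and 427 CPM in KO PBS and 282, 331 and 308 CPM in WT PBS (log2 fold change 0.42, SE 0.14). Sdf2l1, a partner of Hspa5, was at 18.4, 11.8 and 21.2 CPM against 10.5, 13.9 and 10.2 CPM (log2 fold change 0.62, SE 0.19). Pdia4, a disulphide isomerase, was at 52.2, 38.4 and 57.5 CPM against 33.4, 39.1 and 39.9 CPM (log2 fold change 0.45, SE 0.16). In all 3 genes KO PBS 751 and 753 lay above the WT range and KO PBS 752 lay within it, except that TMM scaling placed Hspa5 of KO PBS 752 above it too.

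Hspa1b, an inducible cytosolic chaperone counted in another list, was at 9.94, 5.98 and 9.38 CPM against 5.15, 6.72 and 4.71 CPM (log2 fold change 0.66, SE 0.22), again with KO PBS 752 inside the WT range, and its reads may be shared with the near-identical Hspa1a. Creld2, another ER chaperone, had a log2 fold change of 0.34 (SE 0.12) and Atf6, a sensor of misfolded protein, of 0.40 (SE 0.18). Without KO PBS 752 the log2 fold changes were 0.54 for Hspa5, 0.83 for Sdf2l1 and 0.60 for Pdia4, and DESeq2 on those 5 PBS libraries called them, with adjusted p of 0.000426, 0.00562 and 0.00214. Without WT PBS 791, 3 genes of the list were higher at an unadjusted p under 0.05 and the median was 0.11. Atf4, the factor of the integrated stress response, had a log2 fold change of 0.10 (SE 0.14), Asns of 0.01 (SE 0.19) and Ddit3 of 0.24 (SE 0.12). In the Tau libraries Hspa5 had a log2 fold change of 0.03 (SE 0.14) in males and -0.07 in females.

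A sequence shared by some of these genes is shown because it is the known site through which chaperone genes answer misfolded protein. The ER stress response element, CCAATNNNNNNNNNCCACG on either strand, was found in the RefSeq promoters of 2 of the 18 genes of this list that had an entry, against 0.119% of all 32851 promoter windows. These were Hspa5 (plus strand, chr2:34772013-34772055) and Creld2 (plus strand, chr15:88819508-88819550), both GRCm38.p6, printed with the element and its spacer in capitals and 12 bases on each side. The element began 65 bases before the start of Hspa5 and 126 bases before that of Creld2.
Hspa5: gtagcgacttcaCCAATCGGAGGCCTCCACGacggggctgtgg
Creld2: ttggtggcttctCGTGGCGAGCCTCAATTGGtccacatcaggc
A match of letters is not a site in use, and the windows of Sdf2l1 and Pdia4 did not hold this spacing. The list was made of genes of this response, so its share of matches describes the list and not the genotypes.

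Of 22 glutamate receptor genes, 1 was higher at an unadjusted p under 0.05, against a background of 2.06% higher and 2.36% lower. It was Grin2b, a subunit of the NMDA receptor, with 117, 74.1 and 78.4 CPM in KO PBS and 60, 72.2 and 54.5 CPM in WT PBS (log2 fold change 0.58, SE 0.18). The median of the list was -0.04. Of 21 postsynaptic scaffold genes, Nrxn3 was under that p at 0.30 (SE 0.12, background 2.06% higher), and none of 12 GABA-A receptor genes was. Nrxn3 was past it neither without KO PBS 752 nor without WT PBS 791. Mapk3, a kinase of plasticity signalling, was at 142, 100 and 134 CPM against 180, 155 and 182 CPM (log2 fold change -0.40, SE 0.16), and had a log2 fold change of -0.26 without KO PBS 752, past that p in neither reduced comparison. The other gene of the learning and plasticity list under that p was Ppp1r1b, the dopamine-regulated phosphatase inhibitor of striatal neurons, at 37.9, 178 and 49.6 CPM against 46.9, 47.6 and 43.6 CPM. Its log2 fold change was 0.99 (SE 0.45), and -0.02 without KO PBS 752, the 1 high library. Factors of the regulatory factor X and Notch families had a median of -0.04, with Rfx5 at 16.1, 18.9 and 18.7 CPM in KO PBS against 24.5, 24.4 and 22 CPM in WT PBS (log2 fold change -0.35, SE 0.10) and Hes5 at -0.69 (SE 0.26), or -0.49 without KO PBS 752. None of these genes passed the FDR in edgeR on the male libraries. DESeq2 on the PBS libraries without KO PBS 752 called Grin2b (adjusted p = 0.0291).

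Glial, choroid plexus and immune genes had no gene past the FDR in edgeR on the male libraries either. DESeq2 on the PBS libraries without KO PBS 752 called some. Among them were the choroid plexus gene Ttr (adjusted p = 0.00039), the complement gene C3 (adjusted p = 0.00295) and the astrocyte gene Gfap (adjusted p = 0.0339). Gfap was at 540, 156 and 705 CPM in KO PBS and 417, 513 and 375 CPM in WT PBS. All 14 oligodendrocyte genes had values above 0, with a median of 0.40 and 0 at an unadjusted p under 0.05. Mbp, the major myelin protein, was at 1779, 1772 and 2510 CPM in KO PBS and 1264, 2074 and 1168 CPM in WT PBS (log2 fold change 0.47, SE 0.38). Of 15 choroid plexus genes, 15 had values above 0, with a median of 0.71, and Ttr, the transthyretin made by that epithelium, was at 106, 17 and 135 CPM against 22.6, 44.2 and 29.2 CPM (log2 fold change 1.47, SE 1.38). The ciliated-cell gene Ccdc153 was at 5.17, 1.21 and 6.13 CPM against 0.11, 2.38 and 1.85 CPM (log2 fold change 1.58, SE 0.69). For both of these the high libraries were KO PBS 751 and 753. Without KO PBS 752, 3 oligodendrocyte and 4 ependymal genes were higher at that p, against 3.21% of all genes in that fit. The medians were then 0.48 for oligodendrocytes, 1.07 for choroid plexus and 0.85 for ependymal genes, which had 0.55 with all 6 libraries. Without WT PBS 791 no gene of these 3 lists was under that p, and Ccdc153 was at 1.03. In bulk tissue more cells of a type and more RNA per cell cannot be told apart.

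Microglial genes had a median of -0.03 over 13 genes and Cx3cr1 at 64.7, 57.2 and 75.3 CPM in KO PBS and 71, 73.9 and 64.4 CPM in WT PBS. For 17 genes of disease-associated microglia the median was 0.15, or 0.30 without KO PBS 752. Of these, Lgals3 was under an unadjusted p of 0.05 (background 2.06% higher), with 1.22, 0.423 and 1.1 CPM against 0.384, 0.672 and 0.298 CPM (log2 fold change 1.06, SE 0.46). With WT PBS 791 left out, 0 were under that p. Complement genes had a median of 0.12 over 16 genes, and 0.21 without KO PBS 752, when 2 were higher at that p (background 3.21% in that fit). C3 was at 3.2, 0.665 and 5.17 CPM against 0.822, 1.45 and 1.37 CPM (log2 fold change 1.37, SE 0.64). Reactive astrocyte genes had a median of 0.15 over 11 genes, and 0.01 over 12 without KO PBS 752. Astrocyte genes had a median of 0.01 over 14 genes, and 15 of 16 genes of the major histocompatibility complex had values above 0 with a median of 0.26 and 0 at that p. When KO PBS 752 was left out, the median of the latter was 0.13 with 12 above 0, and without WT PBS 791 it was 0.15. Their summed level was lowest in KO PBS 751, at 147 CPM, and between 190 and 243 CPM in the other 5 libraries. Ribosomal protein genes (76, median 0.01) and genes of oxidative phosphorylation (62, median 0.06) had 0 members at that p.

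Of 11 RNAs retained in the nucleus, 3 were lower at an unadjusted p under 0.05 (background 2.36%), with a median of -0.08. With WT PBS 791 left out there was 1, and the median was -0.0001. With KO PBS 752 left out there were 3 (background 2.55% in that fit), and the median was -0.16. DESeq2 on the PBS libraries without KO PBS 752 called Snhg11 (adjusted p = 0.00711) and Rian (adjusted p = 0.0479), and not Meg3 (adjusted p = 0.426). Meg3 was at 840, 1138 and 1230 CPM in KO PBS and 2165, 1301 and 1633 CPM in WT PBS (log2 fold change -0.61, SE 0.28). Rian, from the same imprinted cluster, was at 294, 351 and 343 CPM against 464, 390 and 421 CPM (log2 fold change -0.32, SE 0.10), and Snhg11 was at -0.63 (SE 0.28). Malat1 was at 0.06 (SE 0.23). The highest Meg3, Rian and Snhg11 values were those of WT PBS 791, and without that library Meg3 was at -0.42, Rian at -0.26 and Snhg11 at -0.40.

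Avp, the vasopressin gene of hypothalamic neurons, was at 1.22, 0.786 and 1.42 CPM in KO PBS and 0.548, 0.207 and 0.298 CPM in WT PBS, a log2 fold change of 1.75 (SE 0.42, adjusted p = 0.999) between low values that did not overlap. In male Tau libraries Avp was at 2.4, 2.4 and 2.96 CPM in KO against 0.954, 1.04 and 0.443 CPM in WT (log2 fold change 1.70, SE 0.36), and in females at -0.71 (SE 0.43). Oxt, the oxytocin gene made in the same nuclei, had a log2 fold change of 1.18 (SE 0.91) after PBS.

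The genes with the largest SD among the KO PBS libraries included Igfn1, Dsp, Lct, Nts and Rspo1, with SDs of log2 CPM between 2.80 and 3.80. Igfn1 was at 0.203, 56.7 and 2.01 CPM in KO PBS 751, 752 and 753 and 11, 14.2 and 12.7 CPM in WT PBS. For these 5 genes KO PBS 752 was either the highest or the lowest library. Among the WT PBS libraries they were Fat2, Cbln3, Car8, Zic1, Cbln1 and Dcn, with SDs between 1.53 and 4.38, and for 5 of these WT PBS 791 was the highest. Of 13 striatal genes tested, 6 were higher at an unadjusted p under 0.05 (background 2.06%), Adora2a by a log2 fold change of 2.88 (SE 0.97), and the median was 0.80. Without KO PBS 752 there were 0 and the median was 0.05, and without WT PBS 791 there were 4.

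Removal of KO PBS 752 left KO PBS 751 and 753 against the 3 WT libraries. In edgeR on the male libraries Acss2 was then again the 1 gene called, and the unadjusted p of 879 genes was under 0.05. DESeq2 with the PBS libraries, which called 4 genes of 19400 with all 6 libraries (0.0206%: Acss2, Per1 and Otof lower and Dync1h1 higher), called 221 of 13286 (1.66%) without KO PBS 752, 108 higher and 113 lower. With the same 5 libraries edgeR called 2 genes, Acss2 and Mef2c. Dync1h1, the heavy chain of cytoplasmic dynein, was at 954, 1047 and 1054 CPM in KO PBS and 707, 788 and 695 CPM in WT PBS, a log2 fold change of 0.53 in edgeR (SE 0.16), with an adjusted p in DESeq2 of 0.00445 on 6 libraries and from 5.66e-05 to 1 over 28 alternatives. Otof, a calcium sensor of vesicle release, was at 4.87, 10.2 and 8.1 CPM against 20.3, 18.9 and 17.7 CPM (log2 fold change -1.25, edgeR SE 0.72, DESeq2 adjusted p = 0.0122, and from 5.96e-08 to 1 over the alternatives). In the male Tau libraries Otof ranged from 2.96 to 29.9 CPM within the KO group alone.

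The 221 genes were looked up in KO PBS 752, a library that had no part in calling them, with Mef2c, Lamp5 and Fibcd1 chosen as examples after their values were seen. Of the 113 lower genes, 78 (69%) had their highest value of the 6 in KO PBS 752, against 28.7% of all genes with a negative value in that fit. Of the 108 higher genes, 82 (75.9%) had their lowest value there, against 42.8% of all genes with a positive one. Mef2c, a transcription factor abundant in neocortical neurons, was at 121 and 164 CPM in KO PBS 751 and 753, at 375, 343 and 373 CPM in WT PBS and at 794 CPM in KO PBS 752. Lamp5, a marker of superficial cortex, was at 42.5 and 54.6 CPM, at 84.6, 96.7 and 95.2 CPM and at 350 CPM in the same order. Fibcd1 of CA1 ran the other way, at 257 and 179 CPM, at 132, 154 and 146 CPM and at 19.8 CPM. The WT libraries thus lay between KO PBS 752 and the other 2 KO libraries in these genes, and the neocortex list as a whole had a median of 0.12 with KO PBS 752 and -0.47 without it. The part of slice position in these values was not tested.

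**Figure D5:**
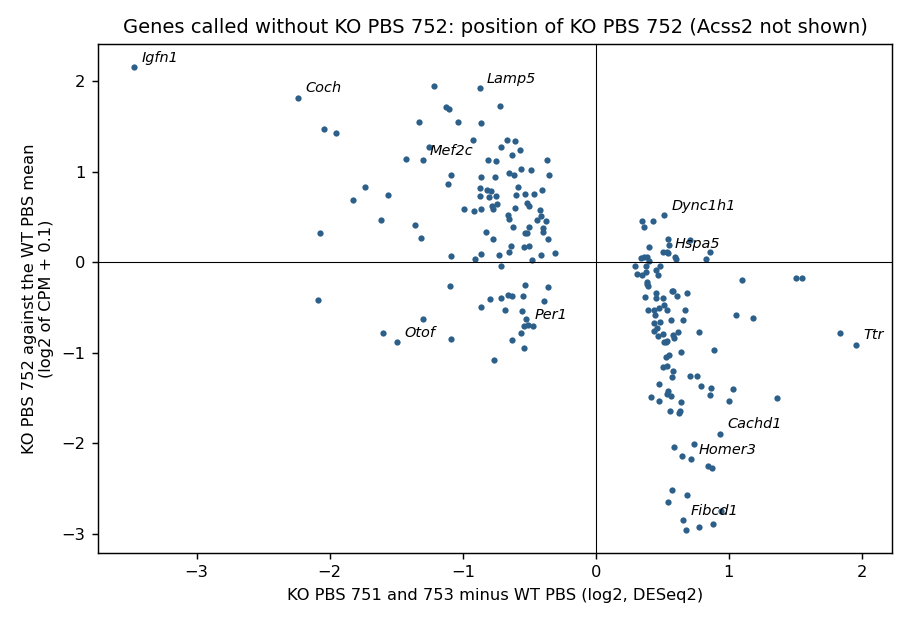
The 220 genes other than Acss2 that DESeq2 called in KO PBS 751 and 753 against WT PBS, by their log2 fold change in that fit (horizontal axis) and by the level of KO PBS 752 against the WT PBS mean (vertical axis, log2 of CPM + 0.1). Lower genes such as Mef2c and Lamp5 lie mostly above 0 and higher genes such as Fibcd1 and Homer3 mostly below 0. Per1, Otof, Hspa5 and Dync1h1 have the same sign on both axes and were named from comparisons that included KO PBS 752.

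In Per1 the 3 KO libraries stood together. Per1, Zdhhc14 and Dync1h1 were named from comparisons that included KO PBS 752. Its agreement with the other KO libraries was thus part of their choice and is a description only. KO PBS 752 had 84.1 CPM of Per1, beside 88.4 and 95.5 CPM in KO PBS 751 and 753, and without KO PBS 752 DESeq2 gave an adjusted p of 0.00116. The same was true of Zdhhc14, at 53.4 CPM beside 54.6 and 53.2 CPM, with an adjusted p of 0.0913 in that fit, and of Dync1h1, with 0.000364. Whether the effect of genotype on any gene differed between PBS and Tau in males was tested with an interaction term. It was past the FDR for 0 of 15098 genes in edgeR, and 631 had an unadjusted p under 0.05. Other tools were not run for the interaction.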

How the data were processed

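The authors aligned reads with STAR 2.5.2 to mm10 (GRCm38) and counted them over exons with HTSeq 0.9.1 in reverse-stranded mode. The deposited values are raw counts per gene symbol, 24498 symbols in 17 libraries, with no normalization, and 98.4% of symbols were matched to GENCODE for positions. The annotation release is not given in the sources used here. Columns of no sample numbered 0, and no 2 of 136 pairs of libraries were identical.

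From the deposited counts, the 12 male libraries were fitted together with edgeR 4.0.16 (R 4.3.3; quasi-likelihood F-test, TMM factors, filterByExpr with minimum count 10 and minimum total count 15, Benjamini-Hochberg FDR of 0.05, two-sided), and male KO PBS was compared with male WT PBS. Female Tau values came from a fit of the 11 Tau libraries. CPM are scaled to library totals. Libraries held 14183131 to 22463635 counts. The script was tested on simulated counts. DESeq2 1.42.0, limma 3.58.1 (voom) and the leaving out of libraries were alternatives. DESeq2 ran on genes with at least 1 count, and a missing adjusted p stayed missing.

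Named genes were Acss2, genes past the FDR in the edgeR, DESeq2 or voom fits of the male or PBS libraries, the 10 higher and 10 lower genes of lowest p without overlap and with a mean of at least 1 CPM, the 6 most variable genes of each group (mean of at least 5 CPM), and up to 4 genes of lowest p of each of 41 lists with their defining members. Further list members with values, and the cerebellar list, were picked after their values were seen. Members and lists were chosen with earlier results of these data known. A few genes that these rules name are not reported here. Lists got no test. The score of a list in a library is the average of its genes' log2 CPM, computed with 2 counts as prior. Promoters are RefSeq windows of GRCm38.p6.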

Additional observations from a re-analysis of the deposited data

How the results depend on the processing

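Acss2 was past the FDR in 28 of 28 alternatives, with a log2 fold change from -3.90 to -3.66. The number of genes called was 1 in edgeR with RLE factors, with no filter, on the 6 PBS libraries or on all 17, in voom and with the dentate granule score as a covariate. It was 2 in DESeq2 on the male libraries and 4 in DESeq2 on the PBS libraries. When libraries were left out in turn it ran from 1 to 221. All 6 such edgeR fits of the male libraries called 1, and the 221 calls came from DESeq2 on the PBS libraries without KO PBS 752, where leaving out KO PBS 751, KO PBS 753 or WT PBS 792 gave 15, 30 and 15. With both KO PBS 752 and WT PBS 791 left out, a choice made after the data were seen, edgeR called 1 gene and DESeq2 38 (8 higher, 30 lower). The cause of the gap between the tools was not tested. Genes at an unadjusted p under 0.05 numbered 259 without WT PBS 791 and 1335 with the dentate covariate, against 667.

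Of 59 other named genes, 58 kept their direction in the alternatives run and 16 passed the FDR in at least 1. The log2 fold change of Ppp1r1b, at 0.99, reversed without KO PBS 752: to -0.0228 in edgeR on the male libraries, -0.0213 in edgeR and -0.0212 in DESeq2 on the PBS libraries, and, with WT PBS 791 also left out, to -0.0226 in edgeR and -0.0216 in DESeq2. With libraries left out in turn it ran from -0.0228 to 1.35. List medians moved by more than 1 SD between libraries in 18 of 464 values, for 10 of 43 medians. No paired analysis was possible because the groups share no replicate numbers. Depth limits what can be seen of genes under 0.137 to 0.181 CPM, the level of 3 counts.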
